A study of Mus musculus with 8 samples.

Results

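CC chemokines are small secreted proteins, named for a pair of adjacent cysteines near their start, that draw leukocytes along a gradient. 10 of their genes, *Ccl2*, *Ccl3*, *Ccl4*, *Ccl5*, *Ccl6*, *Ccl7*, *Ccl8*, *Ccl9*, *Ccl12* and *Ccl24*, were taken by symbol from the 53819 gene rows of an RNA-seq series on bone marrow-derived macrophages (BMDM). The genes were chosen by family name with their change in counts between bilirubin and vehicle already known, so that change is described here and not tested.

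BMDM came from 4 female BALB/cJ mice aged 8 weeks, and the cells of each mouse were cultured separately. Marrow cells grew for 5 days in medium with M-CSF at 25 ng/mL, the growth factor that turns marrow progenitors into macrophages, and were then given DMSO (vehicle) or 2.5 µM bilirubin for 48 h, which gave 4 vehicle and 4 bilirubin libraries of poly(A) RNA. Bilirubin is a product of heme breakdown, and the study asked what it does to macrophages. The methods describe no sorting of the cultures, and in bulk RNA fewer cells of a type and less RNA per cell cannot be told apart.

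Vehicle libraries held 37747315 to 47071714 counts on genes and bilirubin libraries 34142781 to 41054034, the lowest being the bilirubin culture of mouse 1. All 8 macrophage markers examined had enough counts to be tested. *Adgre1*, *Itgam*, *Lyz2* and *Cd14* were higher with bilirubin, by 0.42, 0.26, 0.35 and 0.29 on the log2 scale (edgeR's quasi-likelihood test, Benjamini-Hochberg adjusted p from 5.13e-04 to 0.00372), though *Cd14* did not pass without the mouse in the model (adjusted p = 0.0775). The other 4 had log2 fold changes below 0 and did not pass, at -0.16 for *Cd68*, -0.15 for *Mertk*, -0.20 for *Fcgr1* and -0.02 for *Csf1r* (adjusted p from 0.0924 to 0.935). *Cd68* and *Mertk* were below vehicle in 4 of 4 mice. *Cd68* passed as lower by DESeq2 (adjusted p = 0.0269), on library size alone (0.0333) and with no filter (1.23e-04). *Mertk* (-0.20, adjusted p = 0.0124) and *Fcgr1* (-0.39, adjusted p = 8.34e-04) passed as lower without mouse 1, and with no filter (0.0354 and 0.0421). Summed TPM (abundance per unit of transcript length, equal in total between libraries) of T and NK cell markers was 0.317 to 1.46 in vehicle and 0.491 to 0.795 in bilirubin libraries, with *Cd3g* and *Ncr1* at 0 in every library. The tested gene of that list, *Cd4*, had 19 to 27 and 20 to 43 counts (0.35, adjusted p = 0.613). Dendritic cell markers summed to at most 0.304 TPM, B cell markers to at most 0.831 (*Cd79b* at -0.08, adjusted p = 0.948) and erythroid markers to at most 0.421. Markers of mast cells, basophils and eosinophils summed to 0.029 to 0.149 TPM in vehicle and 0.113 to 2.23 in bilirubin libraries, with *Fcer1a*, *Mcpt8* and *Ms4a2* at 0. *Prg2* made up most of the mean sum, at 0.066 of 0.073 TPM in vehicle and 0.804 of 0.841 in bilirubin. It had 0 to 3 counts in vehicle and 0 to 36 in bilirubin libraries, too few for the main fit. With no filter *Prg2* passed as higher (adjusted p = 0.0384). Of the neutrophil markers *Retnlg* was at 0 in every library and *Mmp8* alone (98.5 and 109 TPM) carried nearly all of the sum, which was 87.7 to 107 TPM in vehicle and 94.5 to 119 in bilirubin. *Mmp8* was at 0.19 (adjusted p = 0.0749), and passed as higher by DESeq2 (0.0295), with no filter (0.00213) and without mouse 1 (0.0406), while *Mpo* had at most 18 counts (0.54, adjusted p = 0.767). Stromal and endothelial markers summed to 1.57 to 3.31 TPM in vehicle and 0.698 to 3.122 in bilirubin libraries. Of these *Col1a1* (-0.93), *Col1a2* (-1.06), *Pecam1* (-0.60) and *Cdh5* (-0.31) were tested and did not pass (adjusted p from 0.171 to 0.515), though *Col1a1* (0.0159) and *Col1a2* (0.0401) passed as lower with no filter. The part of these cell types in the chemokine values was not tested.

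CC chemokines act through G protein-coupled receptors on the responding cell, and most receptors take several ligands. Ligands of Ccr2, the monocyte chemoattractant group, call monocytes out of marrow and blood. Ligands of the macrophage inflammatory protein group, several of which bind Ccr1, act on monocytes, T cells and NK cells, and eotaxins act on eosinophils through Ccr3. Macrophages are a main source of many of these ligands, and many of the genes are switched on through NFκB.

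In the GRCm39 annotation 9 of the 10 genes lie on chromosome 11 and *Ccl24* lies on chromosome 5. *Ccl2*, *Ccl7*, *Ccl12* and *Ccl8* lie in this order on the plus strand from 81926397 to 82007625, with *Ccl11*, not a member, between *Ccl7* and *Ccl12*. *Ccl5*, *Ccl9*, *Ccl6* and *Ccl3* lie on the minus strand from 83416602 to 83540191, and *Ccl4* stands beside them on the plus strand at 83553383 to 83555509. *Ccl24* is on the minus strand of chromosome 5 at 135598668 to 135601905. The gap between the 2 groups on chromosome 11, from *Ccl8* to *Ccl5*, is 1409 kb. Promoters, taken here as the 250 bases before the annotated start of the transcript with most counts, are printed 5′ to 3′ from GRCm39 for the 5 genes that passed the threshold with bilirubin. *Ccl5* and *Ccl9* were higher, while *Ccl2*, *Ccl7* and *Ccl4* were lower. Capitals mark a match to the κB consensus, the sequence that NFκB binds.
Ccl5, chr11:83421346-83421595, minus strand: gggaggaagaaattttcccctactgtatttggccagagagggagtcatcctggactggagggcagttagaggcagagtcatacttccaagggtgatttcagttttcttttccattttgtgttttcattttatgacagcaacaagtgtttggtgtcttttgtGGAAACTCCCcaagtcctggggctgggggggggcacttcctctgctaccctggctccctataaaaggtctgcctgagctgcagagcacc
Ccl9, chr11:83469468-83469717, minus strand: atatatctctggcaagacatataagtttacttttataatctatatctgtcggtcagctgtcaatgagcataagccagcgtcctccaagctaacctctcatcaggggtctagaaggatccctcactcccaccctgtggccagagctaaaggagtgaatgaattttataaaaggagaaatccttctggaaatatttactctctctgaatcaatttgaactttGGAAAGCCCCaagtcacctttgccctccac
Ccl2, chr11:81926147-81926396, plus strand: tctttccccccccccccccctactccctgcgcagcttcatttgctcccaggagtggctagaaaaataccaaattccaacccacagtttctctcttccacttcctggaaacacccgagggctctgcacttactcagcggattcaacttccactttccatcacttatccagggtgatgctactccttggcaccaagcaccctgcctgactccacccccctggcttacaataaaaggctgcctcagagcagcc
Ccl7, chr11:81936282-81936531, plus strand: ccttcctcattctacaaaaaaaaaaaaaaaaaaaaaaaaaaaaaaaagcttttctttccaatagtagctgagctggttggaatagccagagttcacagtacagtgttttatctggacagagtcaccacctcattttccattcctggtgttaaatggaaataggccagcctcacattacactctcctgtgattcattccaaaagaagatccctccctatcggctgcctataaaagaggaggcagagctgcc
Ccl4, chr11:83553133-83553382, plus strand: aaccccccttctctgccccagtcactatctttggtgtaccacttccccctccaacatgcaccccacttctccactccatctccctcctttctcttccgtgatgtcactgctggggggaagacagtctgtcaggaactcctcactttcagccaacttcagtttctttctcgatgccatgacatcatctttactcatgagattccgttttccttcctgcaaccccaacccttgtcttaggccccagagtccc

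A κB match stood 89 to 80 bases before the *Ccl5* start and 30 to 21 bases before the *Ccl9* start, and in none of the other 8 promoters. Both strands were searched, and both matches read on the strand opposite to the one printed. Of 11811 promoters of tested protein-coding genes, 250 bases each, 8.32% held one. The AP-1 sequence TGANTCA was present in *Ccl7* and *Ccl9* and in 4.73% of all promoters, and the STAT sequence TTCNNNGAA in *Ccl2*, *Ccl12* and *Ccl24* and in 6.62%. GAGGAA, the core of a PU.1 site, was present in 6 of the 10 (*Ccl3*, *Ccl5*, *Ccl7*, *Ccl8*, *Ccl12* and *Ccl24*) and in 23.3%, overlapping the STAT match in *Ccl24*. TATAAA was present in 5 of the 10 (*Ccl5*, *Ccl7*, *Ccl8*, *Ccl9* and *Ccl24*) and in 7.27%. The interferon response element (3.27% of promoters) and the C/EBP sequence TTGCNNAA (7.72%) were in none of the 10. These matches describe the letters of the 250 bases and were not tested for binding. Sequence beyond the 250 bases was not searched. Whether a match goes with the change under bilirubin was not tested.

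Of the 10 genes 9 had enough counts to be fitted, and *Ccl8* had 0 counts in all 8 libraries. In the fit over all 13722 tested genes, with mouse and treatment in the model, 2 of the 9 were higher with bilirubin (*Ccl5* and *Ccl9*), 3 were lower (*Ccl7*, *Ccl4* and *Ccl2*) and 4 did not pass the adjusted threshold of 0.05. Over all tested genes 7.53% passed, 4.49% as higher and 3.04% as lower. The median log2 fold change of the 9 genes was -0.30, beside -0.0018 over all tested genes. Values of *Ccl5*, *Ccl7* and *Ccl4* did not overlap between the groups, as in 10.6% of all tested genes (5.93% higher and 4.69% lower). The members were chosen with this contrast known, and nothing is read from these counts.

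**Figure D1:**
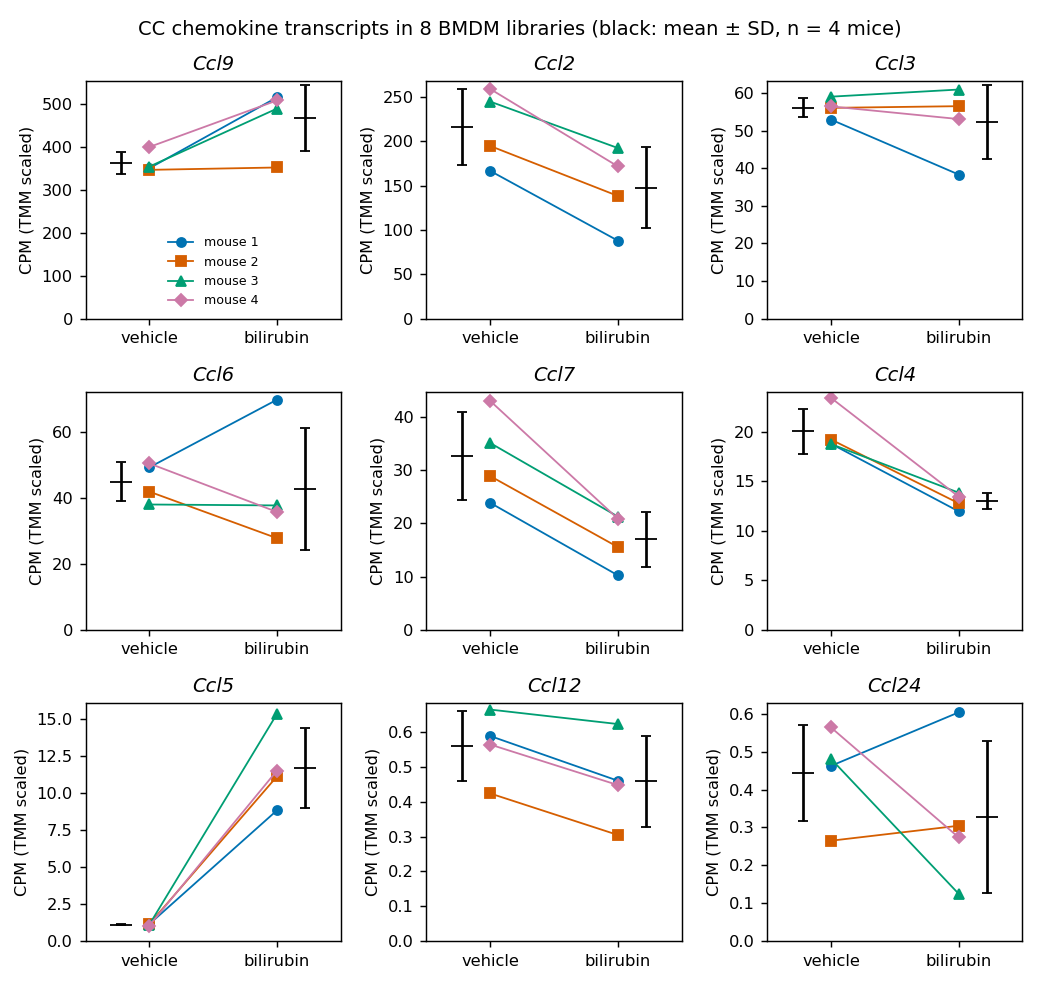
CPM (counts scaled to library size, with TMM factors) of the 9 detected CC chemokine genes in each of the 8 libraries, with a line joining the vehicle and bilirubin cultures of a mouse and black bars for the mean ± SD of 4 mice, each axis starting at 0. *Ccl5* rises from a mean of 1.1025 to 11.7 CPM in parallel in the 4 mice, *Ccl2*, *Ccl7* and *Ccl4* slope down in all of them, and the *Ccl6* lines cross.

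The ligands of Ccr2 were read first. *Ccl2* encodes monocyte chemoattractant protein 1, the main signal that brings monocytes into inflamed tissue. Vehicle cultures of mice 1 to 4 held 167, 195, 245 and 259 CPM, and bilirubin cultures of the same mice held 87.9, 138, 192 and 172 CPM. It was lower with bilirubin in 4 of 4 mice, and the groups overlapped, since mice 3 and 4 were above mice 1 and 2 under both treatments. Group means were 216 ± 43.0 and 148 ± 45.5 CPM (SD, n = 4), and the log2 fold change was -0.59 (SE 0.08). The fall was largest in mouse 1, at -0.92, and smallest in mouse 3, at -0.35. Without the mouse in the model, which ignores these differences between animals, *Ccl2* did not pass (-0.55).

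*Ccl7*, which encodes monocyte chemoattractant protein 3, a second Ccr2 ligand, lies 8.3 kb from *Ccl2*. Its CPM was 23.9, 28.9, 35.1 and 43.0 in the vehicle cultures and 10.2, 15.6, 21.3 and 20.9 in the bilirubin cultures. The order of the mice in vehicle was the one seen for *Ccl2*, and the highest bilirubin culture was below the lowest vehicle culture. The log2 fold change was -0.96 (SE 0.08), a fold of 0.513, and the 4 mice ranged from -1.22 in mouse 1 to -0.72 in mouse 3. For *Ccl2* and *Ccl7* alike, mouse 1 thus had the lowest level in either group and the deepest fall.

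*Ccl12*, a further Ccr2 ligand of mice, was scarce. It had 28, 16, 29 and 24 counts in vehicle and 16, 11, 25 and 18 in bilirubin cultures. All 4 mice had fewer with bilirubin, as 13.9% of all tested genes did, but the log2 fold change of -0.30 was about the size of its SE of 0.29 and did not pass. *Ccl8*, which lies 11.5 kb from *Ccl12* on chromosome 11, had no read in any library. Zero counts allow up to 3 counts, which in these libraries is 0.0637 to 0.0879 CPM, and this limit covers counting error only.

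*Ccl5* (RANTES), which acts through Ccr1 and other receptors and is best known as a signal to T cells, moved most. Counts were 54, 43, 48 and 44 in vehicle and 307, 402, 616 and 463 in bilirubin cultures, which is 1.136, 1.139, 1.1004 and 1.0347 CPM against 8.83, 11.1, 15.4 and 11.5 CPM. Vehicle cultures were nearly level and all bilirubin cultures stood far above them, with mouse 3 highest and mouse 1 lowest. Means were 1.1025 ± 0.0485 and 11.7 ± 2.7045 CPM (SD, n = 4). The log2 fold change was 3.38 (SE 0.15), a fold of 10.4, with 2.91, 3.23, 3.74 and 3.42 in mice 1 to 4. T and NK cells also express *Ccl5*. Their 8 markers summed to 0.317 to 1.46 TPM in vehicle and 0.491 to 0.795 TPM in bilirubin libraries. Of these markers *Klrb1c*, which marks NK cells, had 0 counts in every vehicle library and 1 to 6 in bilirubin libraries. *Ncr1*, also of NK cells, had 0 in every library. *Cd8a* had 0 to 2 counts in vehicle and 0 in bilirubin libraries, and *Cd3d* had 0 to 3 and 0 to 1. The part of T and NK cells in the *Ccl5* counts was not tested.

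*Ccl9*, a Ccr1 ligand also called macrophage inflammatory protein 1 gamma, is 37.8 kb from *Ccl5* on the same strand. It held 351, 347, 354 and 400.1 CPM in vehicle and 516, 352, 489.65 and 509 CPM in bilirubin cultures. Mice 1, 3 and 4 rose above every vehicle culture, whereas mouse 2 stayed at its vehicle level, so the groups overlapped. The log2 fold change was 0.35 (SE 0.08), with 0.56, 0.02, 0.47 and 0.35 in mice 1 to 4. *Ccl9* passed in 7 of 12 alternative settings, and it did not pass without mouse 3 (0.31) or mouse 4 (0.35), without the mouse in the model (0.36), by DESeq2 (0.35) or with an offset for transcript length (0.36).

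*Ccl6*, another Ccr1 ligand, lies 5.5 kb from *Ccl9*. Its CPM was 49.4, 42.0, 38.1 and 50.6 in vehicle and 70.0, 27.8, 37.8 and 35.8 in bilirubin cultures. Mouse 1 rose by 0.50 on the log2 scale, mice 2 and 4 fell by 0.59 and 0.50, and mouse 3 stood at -0.01. Between cultures of 1 treatment the spread grew from an SD of 5.97 to 18.6 CPM. The log2 fold change of -0.14 (SE 0.16) did not pass, became -0.37 and passed without mouse 1, and was 0.00405 without mouse 2.

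*Ccl3* and *Ccl4* encode the macrophage inflammatory proteins 1 alpha and 1 beta, lie 13.2 kb apart on opposite strands. *Ccl4* held 18.8, 19.2, 18.8 and 23.4 CPM in vehicle and 11.97, 12.8, 13.9 and 13.5 CPM in bilirubin cultures. The groups stood apart and the log2 fold change was -0.62 (SE 0.07), from -0.44 in mouse 3 to -0.80 in mouse 4. *Ccl3* held 52.9, 56.1, 59.0 and 56.4 CPM in vehicle and 38.3, 56.5, 60.9 and 53.1 CPM in bilirubin cultures. Its fall was in mouse 1, at -0.47, while mice 2, 3 and 4 were at 0.01, 0.05 and -0.09, and the log2 fold change of -0.12 (SE 0.08) did not pass. *Ccl4* was therefore lower in 4 of 4 mice and its neighbour *Ccl3* in 2 of 4, and the difference between the 2 genes was not tested.

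*Ccl24* (eotaxin-2), an eosinophil attractant that macrophages can make, was scarce. It had 22, 10, 21 and 24 counts in vehicle and 21, 11, 5 and 11 in bilirubin cultures. In CPM, mice 3 and 4 were lower with bilirubin and mice 1 and 2 were higher, and the log2 fold change of -0.52 (SE 0.45) did not pass. It was -0.91 without mouse 1, -0.15 without mouse 3 and -1.01 with transcript lengths as an offset, and passed in none of these.

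**Figure D2:**
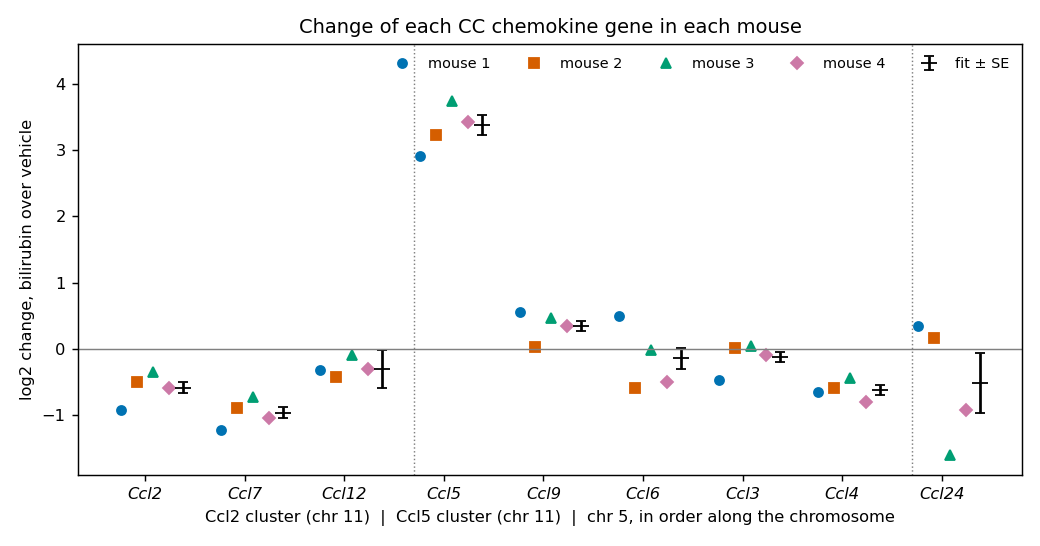
Log2 change of each CC chemokine gene from the vehicle to the bilirubin culture of the same mouse (coloured points) beside the fitted log2 fold change ± SE (black), with genes in order along the chromosomes and dotted lines between the 3 groups. *Ccl5* stands alone at 3.38, the Ccr2 ligands *Ccl2*, *Ccl7* and *Ccl12* lie below 0 in all 4 mice, and *Ccl6*, *Ccl3* and *Ccl24* have mice on both sides of 0.

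Levels of different genes were compared as TPM. In vehicle cultures *Ccl2* (516 TPM, 405 to 617) and *Ccl9* (490.33 TPM, 449 to 552) led and could not be separated, with *Ccl2* above *Ccl9* in 2 of 4 mice. *Ccl3* followed at 146 TPM (141 to 152), apart from both its neighbours in the order. *Ccl7* (80.5 TPM), *Ccl6* (68.0 TPM) and *Ccl4* (63.6 TPM) overlapped in that order. *Ccl5* came next at 4.71 TPM, below *Ccl4* and above *Ccl12* (2.37 TPM) in every mouse, and *Ccl24* stood at 1.48 TPM. In vehicle an abundant pair was thus followed by *Ccl3*, the overlapping *Ccl7*, *Ccl6* and *Ccl4*, and a scarce group with *Ccl5*. The place of *Ccl9* in the pair rests on a short transcript described below, without which it stood at 173 TPM.

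With bilirubin *Ccl9* was first at 617 TPM (460.32 to 728), above *Ccl2* at 339 TPM (213 to 446) in 4 of 4 mice and with no overlap. *Ccl3* was at 131 TPM, and *Ccl6* (65.2 TPM), *Ccl5* (48.4 TPM), *Ccl7* (40.3 TPM) and *Ccl4* (39.9 TPM) overlapped from each to the next. *Ccl5* had thus moved up among *Ccl6*, *Ccl7* and *Ccl4*, above *Ccl7* in 3 of 4 mice. *Ccl12* (1.88 TPM) and *Ccl24* (0.905 TPM) stayed scarce.

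The lead of *Ccl9* rested on 1 short transcript. A 398-base transcript with no defined coding sequence took 13.0% of the *Ccl9* counts in vehicle and 13.2% in bilirubin, but 64.6% and 65.1% of the TPM, because TPM divides by length. The coding transcript of 3006 bases alone stood at 173 ± 11.5 TPM in vehicle and 216 ± 39.6 TPM in bilirubin cultures (SD, n = 4), a measure added after the data were seen. Counted this way *Ccl9* was below *Ccl2* in all 4 vehicle cultures, and in bilirubin it was above *Ccl2* in mouse 1 (251 against 213 TPM) and below it in the other mice.

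Summed over all CC ligand genes in the table, the ligand pool was 1207.5, 1297, 1425 and 1588.5 TPM in vehicle and 1263, 1085.2, 1464 and 1346 TPM in bilirubin cultures. The sum rose in mice 1 and 3 and fell in mice 2 and 4, with a mean ratio of 0.939 ± 0.113 (SD, n = 4 mice). That split between mice depends on the short *Ccl9* transcript. With the coding transcript alone the sum was 931, 979, 1115 and 1225 TPM in vehicle and 786, 784, 1048 and 936 TPM in bilirubin cultures, lower in 4 of 4 mice, and the mean ratio was 0.837. On CPM in place of TPM the mean ratio was 1.02. Shares of single ligands within the sum were then compared. *Ccl2* went from 37.2% ± 3.20 of the sum to 26.2% ± 6.27, lower in 4 of 4 mice, and *Ccl9* from 35.7% ± 1.82 to 47.8% ± 6.85, higher in 4 of 4. *Ccl5* went from 0.347% ± 0.0591 to 3.75% ± 0.606, *Ccl7* from 5.77% to 3.11% and *Ccl4* from 4.62% to 3.122%, each the same way in 4 of 4 mice. *Ccl3* held 10.7% and 10.3%, higher in 2 of 4 mice, with a difference of -0.42 points that was 0.62 without mouse 1. *Ccl6* held 4.98% and 5.08% but was higher in mouse 1 alone (6.22% and 8.59%), and without mouse 1 its share differed by -0.66 points. With the coding transcript of *Ccl9* alone the shares were 48.3% and 37.7% for *Ccl2*, 16.4% and 24.5% for *Ccl9* and 0.451% and 5.42% for *Ccl5*.

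**Figure D3:**
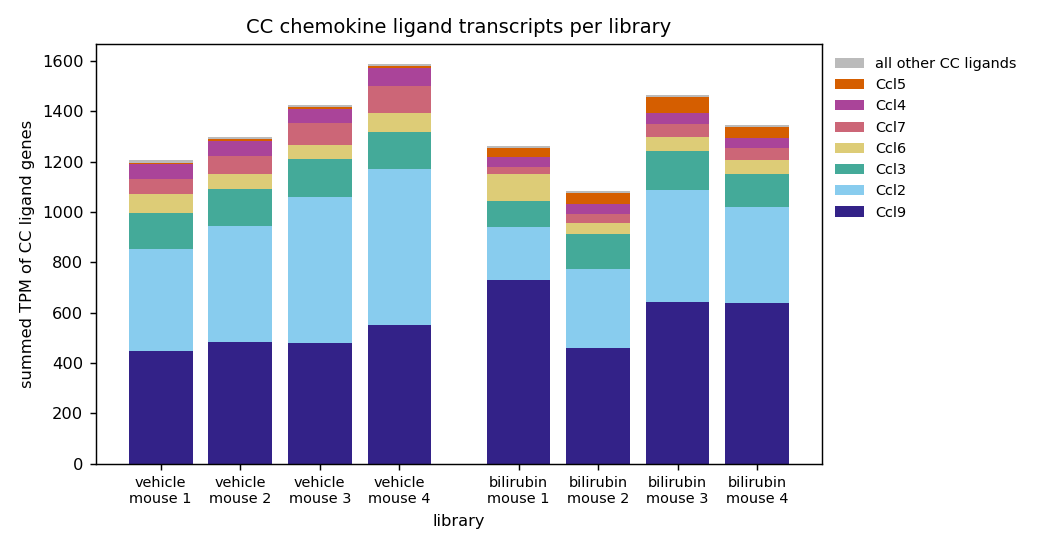
Summed TPM of CC chemokine ligand genes in each library, stacked by gene, with the 4 vehicle libraries on the left and the 4 bilirubin libraries on the right. Bar heights overlap between the groups (1207.5 to 1588.5 and 1085.2 to 1464 TPM) with the short *Ccl9* transcript included, the *Ccl2* block is shorter with bilirubin and the orange *Ccl5* block becomes visible.

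Shares of transcripts within a gene were not used in choosing the members and could be tested. *Ccl2*, *Ccl6* and *Ccl9* had more than 1 transcript above 1 TPM. The coding transcript of *Ccl6* made up 66.1%, 65.96%, 67.04% and 59.8% of its TPM in vehicle and 63.8%, 59.2%, 59.0% and 54.0% in bilirubin cultures of mice 1 to 4. It was lower in 4 of 4 mice, with a mean difference of -5.72 percentage points, and a retained-intron transcript made up most of the rest. An exact two-sided permutation test over the 4 paired differences gave p = 0.125, the smallest that 4 pairs allow. The leading transcript's share differed by -0.42 points for *Ccl2* (97.6% and 97.2%, exact permutation p = 0.625) and by 0.46 points for *Ccl9* (64.6% and 65.1%, exact permutation p = 1). These 3 tests cannot reach 0.05 with 4 mice, with or without adjustment.

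Of 16 further CC ligand genes listed, 14 were in the table, 8 were at 0 in every library and 1 could be tested. That was *Ccl25*, a ligand of gut and thymus, at 5.38 TPM in vehicle and 5.06 TPM in bilirubin, with a log2 fold change of -0.04 (SE 0.24, edgeR adjusted p = 0.959, 0.530 to 0.990 over the alternatives). *Ccl17* and *Ccl22*, typical of alternatively activated macrophages, had at most 1 and 10 counts in any library. The eotaxin *Ccl11* was among the genes at 0.

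Receptors were examined next, because the ligands act back on macrophages. Of 10 CC receptor genes examined 3 could be tested and 0 passed, by edgeR, DESeq2 or limma-voom, and 0 had an unadjusted p under 0.05 in edgeR. *Ccr1*, the receptor of *Ccl3*, *Ccl5*, *Ccl6* and *Ccl9*, stood highest at 13.0 TPM in vehicle and 12.3 TPM in bilirubin (log2 fold change -0.03, SE 0.10, adjusted p = 0.916). *Ccr3*, the eotaxin receptor, was at 3.31 and 2.84 TPM (-0.16, SE 0.11, adjusted p = 0.475) and *Ccr2*, the receptor of *Ccl2*, *Ccl7* and *Ccl12*, at 1.58 and 1.448 TPM (-0.15, SE 0.21, adjusted p = 0.750). *Ccr2* had fractional counts, as genes that share reads do, and its values are uncertain to that extent.

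Among 5 genes listed as atypical chemokine receptors, a class without G protein signalling, only *Ccrl2* could be tested. Whether *Ccrl2* binds the CC chemokines was not examined. It had 232 to 286 counts in vehicle and 301 to 381 in bilirubin cultures, and 5.98 ± 0.533 and 8.69 ± 0.822 CPM. It was higher in 4 of 4 mice, with a log2 fold change of 0.54 (SE 0.09, edgeR adjusted p = 0.0111). It did not pass without mouse 3 (adjusted p = 0.0847), without mouse 4 (0.0893) or with transcript lengths as an offset (0.0505). Its adjusted p ran from 1.67e-04 to 0.0893 over the alternatives.

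Genes that carry the receptor signal were listed by role, and 6 of 23 passed, beside 7.53% of all tested genes. The list was chosen with earlier results of these data known, so nothing is read from that count. *Grk3*, a kinase that switches receptors off, rose from 14.6 ± 1.08 to 22.1 ± 3.65 CPM (log2 fold change 0.59, SE 0.08, edgeR adjusted p = 0.00372). *Pik3r5*, the regulatory subunit of the PI3K that G proteins activate, rose from 222 ± 10.9 to 278 ± 13.9 CPM (0.33, SE 0.03, adjusted p = 9.66e-04). Both passed in all 12 alternatives. *Rac2*, a GTPase of leukocyte movement, was higher by 0.18 (adjusted p = 0.0137), and *Gng5*, a G protein gamma subunit, was lower by a log2 fold change of -0.17 (adjusted p = 0.0247). *Rgs1* and *Rgs2*, which speed the shut-off of G proteins, were lower at -0.45 (adjusted p = 0.0454) and -0.35 (adjusted p = 0.00945). Among genes that shut the signal off, those that passed thus moved both ways, *Grk3* up and *Rgs1* and *Rgs2* down. Calls of *Rac2* and *Gng5* were lost without mouse 2, 3 or 4 (adjusted p from 0.061 to 0.164), that of *Rgs1* without mouse 3 (0.260) or 4 (0.104) and that of *Rgs2* without mouse 3 (0.0931). These 4 genes also missed the threshold with an offset for transcript length, where adjusted p ran from 0.0528 for *Rgs1* to 0.268 for *Rac2*, and *Rgs1* missed it by DESeq2 (0.0895) and without the mouse in the model (0.184). Over the alternatives adjusted p ran from 8.21e-04 to 0.268 for *Rac2*, from 0.00357 to 0.164 for *Gng5*, from 2.68e-10 to 0.260 for *Rgs1* and from 6.13e-09 to 0.0931 for *Rgs2*.

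Of 7 genes for proteins that bind AU-rich or stem-loop elements of mRNA, through which chemokine transcripts are cleared or kept, 2 passed, both higher. Over all tested genes 4.49% passed as higher, and this list too was chosen with earlier results known. *Zc3h12c* rose from 27.5 ± 2.08 to 47.1 ± 5.30 CPM (log2 fold change 0.77, SE 0.08, edgeR adjusted p = 7.15e-04), in all 12 alternatives. *Zc3h12a* (regnase-1), an RNase that cleaves inflammatory mRNA, rose from 17.6 ± 0.435 to 28.3 ± 6.23 CPM (0.66, SE 0.10, adjusted p = 0.00475). *Zc3h12a* did not pass without mouse 3 (adjusted p = 0.0583) or with an offset for transcript length (0.0944), within a range from 2.27e-12 to 0.0944 over the alternatives. The other 5 did not pass. *Zfp36*, which encodes tristetraprolin, was at 0.07 (adjusted p = 0.428), and its relative *Zfp36l1* at -0.90 (SE 0.26, adjusted p = 0.0844). In *Zfp36l1* mouse 1 stood at 0.21 and mice 2, 3 and 4 at -1.59, -1.10 and -1.37. It passed as lower without mouse 1 (-1.35, adjusted p = 5.67e-06) and with no filter (4.11e-10), within a range from 4.11e-10 to 0.527 over the alternatives.

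Of 4 tested genes for enzymes that trim or sulfate chemokines or their receptors 0 passed by edgeR, DESeq2 or limma-voom, and 1 had an unadjusted p under 0.05 in edgeR. *Mmp12*, a macrophage elastase that cleaves CC chemokines, was at 1688 ± 309 and 2205 ± 739 CPM (0.35, SE 0.14, adjusted p = 0.193), and without mouse 1 it was higher at 0.53 (adjusted p = 5.41e-04, with 1.85e-07 to 0.642 over the alternatives). *Ctsc* (-0.03, adjusted p = 0.930), *Tpst1* (0.15, adjusted p = 0.333) and *Tpst2* (0.06, adjusted p = 0.485) were the others.

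**Figure D4:**
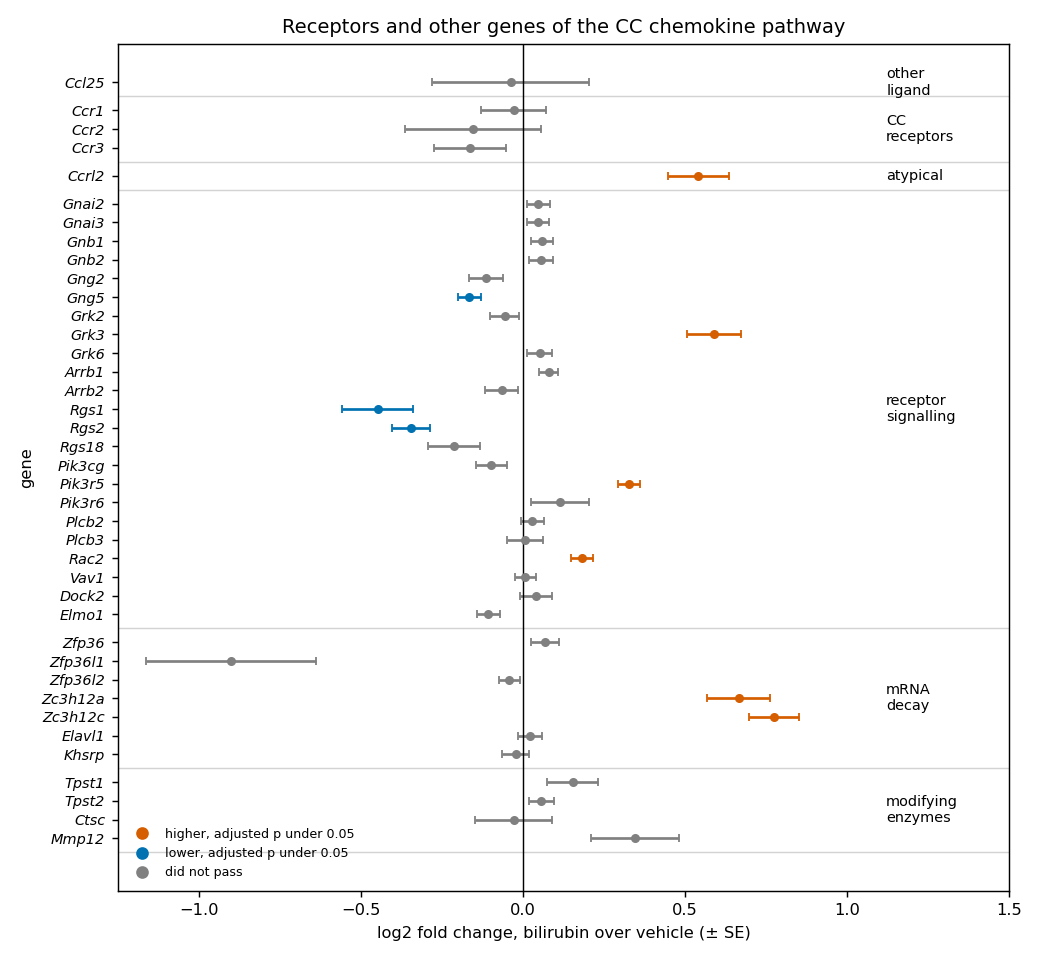
Fitted log2 fold change ± SE, bilirubin over vehicle, of tested genes of the CC chemokine pathway by role, in orange where higher and blue where lower at an adjusted p under 0.05 and in grey otherwise. The 3 CC receptors are grey, between -0.16 and -0.03, while *Ccrl2*, *Grk3*, *Zc3h12a* and *Zc3h12c* stand to the right at 0.54, 0.59, 0.66 and 0.77 and *Rgs1* is furthest to the left among those that passed, at -0.45.

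Genes next to the chemokines on the chromosomes were compared with them. Within 200 kb of the CC chemokine genes, 11 other genes could be tested, 5 beside the *Ccl5* group, 6 beside *Ccl24* and 0 beside the *Ccl2* group. The 5 beside *Ccl5*, *Ccl9*, *Ccl6*, *Ccl3* and *Ccl4* did not pass, and their log2 fold changes ran from -0.90 (*Mmp28*, adjusted p = 0.0660) to 0.04 (*Ap2b1*, adjusted p = 0.552). Near *Ccl24*, *Hip1* was lower at -0.30 (SE 0.03, edgeR adjusted p = 8.68e-04). None of the 11 was higher and 1 was lower, where 4.49% and 3.04% of all tested genes were, and *Ccl5* was at 3.38.

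The genes most like *Ccl5* over the 8 libraries were found by the root mean square distance of log2 CPM, each gene centred on its own mean, among 10906 genes. *Acod1*, the enzyme that makes itaconate, was nearest at 0.212 (its own log2 fold change 3.39, SE 0.13), followed by the CXC chemokine *Cxcl1* at 0.317 (3.49, SE 0.19) and complement *C3* at 0.352 (3.05, SE 0.12). For *Ccl7*, the member with the lowest fold change, the VEGF receptor gene *Flt1* was nearest at 0.269 (-0.89, SE 0.08), then *Plau*, which encodes urokinase, at 0.287 (-0.88, SE 0.12) and *Lrig1* at 0.310 (-0.50, SE 0.15). These distances are descriptions with no test.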

How the data were processed

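Poly(A) RNA of 8 libraries was examined. The members and the gene lists were chosen with earlier results of these data known. Per the labels and methods, the authors trimmed reads with Trim Galore 0.6.7 and cutadapt 3.4, aligned them with STAR 2.7.9a to GRCm39 and quantified transcripts with Salmon 1.10.1. The authors deposited estimated counts per gene (expected counts, 88.45% whole, unscaled) and, for each library, estimated counts and TPM per transcript. Transcript counts summed per gene equalled the gene table. Salmon splits reads that near-identical genes share, so such genes are uncertain.

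Counts were rounded and fitted in R 4.3.3 with edgeR 4.0.16 (TMM scaling, filterByExpr with at least 10 counts, 15 in total, mouse and treatment in the model, quasi-likelihood test), and p-values were adjusted by Benjamini-Hochberg over 13722 genes at 0.05. The fit was tested on simulated data. Mouse was a block because the labels give each pair of cultures 1 number, and the methods name the mouse as a covariate. Deviations from group means correlated at 0.108, 0.134, 0.108 and -0.0053 within mice 1 to 4. Between mice they correlated at -0.0279 on average and at most at 0.0751, which is above the value within mouse 4. Each standard error was the log2 fold change divided by the root of its F statistic. For log2 CPM a prior count of 2 was added.

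Alternatives were a model without mouse, DESeq2 1.42.0, limma 3.58.1 (voom), DESeq2's size factors, library size alone, no filter, a CPM above 1 in 4 libraries, transcript lengths as an offset, and leaving out each mouse in turn. Gene TPM was also taken with the coding transcript of *Ccl9* alone, an alternative chosen after seeing the data. Genes named are the 10 members, every listed gene that passed or whose list had 5 or fewer tested genes, neighbours within 200 kb that passed, and the 3 genes most like the members with the highest and lowest fold change. *Mmp28*, *Ap2b1*, *Cd68*, *Mertk*, *Fcgr1*, *Csf1r*, *Klrb1c*, *Zfp36*, *Zfp36l1* and ligands or markers without a test were named after their values were seen. Positions and promoters were read from the GRCm39 genome and its GENCODE annotation. The result of 1 gene is not reported here.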

Additional observations from a re-analysis of the deposited data

Results flagged for a closer look

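In each group of 4 cultures, the highest or lowest value was set against the gap to its nearest neighbour, and the gap against the whole range of the group. Of 27 groups examined, 3 had a culture standing this far from the others, and chance alone marks about 1 group in 20. *Ccl4* stood apart in the vehicle culture of mouse 4, at 23.4 CPM, where the other vehicle cultures held 18.8 to 19.2. *Ccl9* stood apart in the same culture, at 400 CPM, where the others held 347 to 354. Its bilirubin culture of mouse 2, at 352 CPM, lay below the other bilirubin cultures at 489.65 to 516. Without mouse 4 the log2 fold change of *Ccl4* kept its direction, with -0.56 to -0.68 over all mice left out in turn.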

How the results depend on the processing

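Calls of *Ccl5*, *Ccl7* and *Ccl4* passed in all 12 alternatives and that of *Ccl2* in 11. Without the replicate block, that is without pairing by mouse, 3 of the 5 members passed, and *Ccl2* (-0.55) and *Ccl9* (0.36) did not. Leaving out a mouse gave 4 to 6 members. *Ccl6* passed at -0.37 without mouse 1 and turned to 0.004 without mouse 2. *Ccl9* also failed by DESeq2 (0.35), with the length offset (0.36), without mouse 3 (0.31) and without mouse 4 (0.35). On CPM in place of TPM, the shares of *Ccl4*, *Ccl5* and *Ccl7* changed by -0.98, 1.41 and -2.14 percentage points. The 1 receptor call, *Ccrl2*, fell to 0 calls with the length offset and was 0 to 1 with a mouse left out. The 8 signalling, decay and enzyme genes became 3 with the length offset and 3 to 15 with a mouse left out. The 1 neighbour became 2 on library size alone, 4 with no filter, 2 with a CPM above 1 and 1 to 3 with a mouse left out. Over all genes 1033 calls became 686 without the block, 579 with the length offset, 1692 with no filter of 26021 tested, and 1910, 634, 377 and 441 without mouse 1, 2, 3 and 4. The share of calls that were higher was 59.6%, and 48.7% on library size alone. Causes of these shifts were not tested. Counts of 5 to 29 limit what can be said of *Ccl12* and *Ccl24*.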
